A study of Mus musculus with 59 samples.

Results

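The 10 genes described here encode transcription factors and coactivators that set the identity and oxidative activity of brown adipose tissue (BAT), the heat-producing fat of rodents. They were listed by name: the coactivators Ppargc1a and Ppargc1b, the estrogen-related receptors Esrra, Esrrb and Esrrg, the peroxisome proliferator-activated receptors Ppara and Pparg, and the adipocyte regulators Prdm16, Cebpb and Ebf2. All 10 were found among the 55341 genes of each count table, which cover BAT of 59 male C57BL/6J mice aged 8 to 12 weeks in 3 experiments. In the first, mice made hypothyroid with the thyroid blocker propylthiouracil (PTU) were compared with PTU mice killed 3, 6, 12 or 24 h after 1 injection of thyroid hormone (TH), with 4 wild-type (WT) mice in each of the 5 groups, and BATKO mice were studied under PTU (n = 5) and 24 h after TH (n = 5). In the second, an experiment of 24 h, control (CTRL) mice were held at 4 °C (n = 3) or 30 °C (n = 4) and BATKO mice at 4 °C (n = 4) or 30 °C (n = 5). In the third, an experiment of 3.5 days, 4 CTRL mice were fed the diet labelled HFD and 4 that labelled Chow, with 3 BATKO mice on HFD and 2 on Chow.

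The labels give BATKO only as a genotype. Which gene was changed, by which Cre line and against which littermates is not given in the sources used here, so the genotype could not be checked on a targeted gene. The mice are numbered, but nothing else is said of litters or days, and the p-values below measure only the spread between these samples. Total counts ran from 7805938 to 18073627 per mouse in the TH experiment, from 8008348 to 12887313 in the temperature experiment and from 7612059 to 11533900 in the diet experiment. Mitochondrially encoded genes took 39.2 to 55.7% of the counts. All 6 brown adipocyte markers, among them Ucp1, were counted in each mouse, and they summed to 5667 to 6881 CPM (counts per 1000000 of the library) in the BATKO mice at 30 °C and to 5680.3 to 7063 CPM in the CTRL mice at 30 °C, the 2 groups with the lowest sums. Levels of single mice are in CPM after TMM scaling throughout, differences are log2 fold changes with their standard error (SE), and a gene is called where its adjusted p (edgeR's quasi-likelihood test, Benjamini-Hochberg over all genes tested) was below 0.05. In bulk tissue, fewer cells of a type and less RNA per cell cannot be told apart.

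As background, the PGC-1 proteins bind no DNA themselves. They are recruited by nuclear receptors such as the ERRs and PPARs and raise transcription of genes for mitochondria, fatty acid oxidation and heat production. Noradrenaline released in the cold acts through β-adrenergic receptors and cAMP and is a known inducer of Ppargc1a in brown fat. Thyroid hormone acts through nuclear receptors that bind DNA directly, and it also raises sympathetic input to this tissue. PRDM16, EBF2 and C/EBPβ act earlier, in the commitment of precursors to the brown fat lineage and in the upkeep of that identity, and PPARγ is required for every fat cell.

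Promoter sequences are shown for Ppargc1a, Esrrb and Cebpb, the 3 members with the largest called increases at the first time after TH, so that their start regions can be read beside their values. Each is the 250 bases before the annotated start, 5′ to 3′ on the gene's own strand, from RefSeq on GRCm38.p6. Capitals mark TGACG, the core of the cAMP response element, or its complement CGTCA where the match lies on the other strand.
Ppargc1a, chr5:51567726-51567975, minus strand: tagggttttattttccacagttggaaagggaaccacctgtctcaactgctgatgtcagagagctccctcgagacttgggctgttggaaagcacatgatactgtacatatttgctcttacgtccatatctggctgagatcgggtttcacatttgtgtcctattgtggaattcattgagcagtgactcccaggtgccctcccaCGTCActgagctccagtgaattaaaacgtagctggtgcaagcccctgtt
Esrrb, chr12:86360867-86361116, plus strand: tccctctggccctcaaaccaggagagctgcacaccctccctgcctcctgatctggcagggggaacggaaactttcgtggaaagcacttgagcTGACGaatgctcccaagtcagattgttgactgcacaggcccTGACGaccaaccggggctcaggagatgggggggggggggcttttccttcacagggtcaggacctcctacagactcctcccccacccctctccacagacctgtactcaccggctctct
Cebpb, chr2:167688665-167688914, plus strand: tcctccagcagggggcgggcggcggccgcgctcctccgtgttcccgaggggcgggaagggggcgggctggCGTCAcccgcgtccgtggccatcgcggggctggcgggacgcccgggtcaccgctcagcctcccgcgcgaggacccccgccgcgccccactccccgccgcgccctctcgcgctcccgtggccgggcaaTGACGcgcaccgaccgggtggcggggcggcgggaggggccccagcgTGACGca
The match began 49 bases before the start in Ppargc1a, 158 and 117 bases before it in Esrrb, and 180, 53 and 7 bases before it in Cebpb. It also stood 222 bases before the start of Ppara, which was lower after TH, and it was in no promoter entry of Esrra, which was called higher at 3 h, nor in those of Esrrg, Pparg and Prdm16 or the other entry of Esrrb. This 5-letter core is common, since 20.8% of 32851 mouse promoters of 300 bases hold it on either strand. None of the 14 promoter entries found for 8 of the 10 members held the full element TGACGTCA, which 1.79% of all promoters hold, the ERR element TCAAGGTCA (0.423%), or the thyroid hormone receptor element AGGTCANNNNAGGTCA (0.0152%). The nuclear receptor core AGGTCA, which is contained in the last 2 of these, stood in 2 of the Pparg promoters and is held by 16.3% of all promoters.

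**Figure D1:**
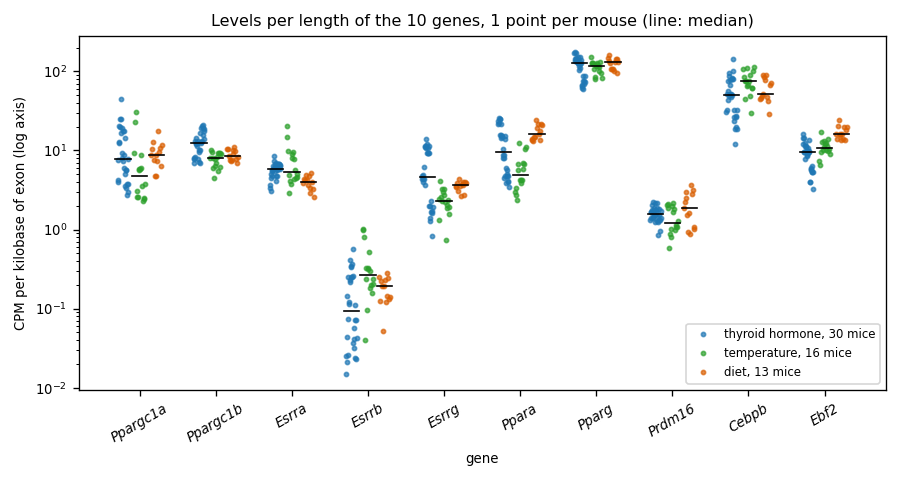
Level per length of the 10 genes: CPM per kilobase of exon on a log axis, 1 point per mouse, coloured by experiment, with the median as a line. Pparg and Cebpb sit highest in all 3 experiments and Esrrb sits lowest.

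The members differed widely in abundance. Per kilobase of exon, which allows levels of different genes to be set side by side, Pparg was the highest, with a median over mice of 128, 116 and 133 CPM per kilobase in the TH, temperature and diet experiments. Cebpb followed at 49.7, 74.9 and 51.4. In the middle of the order, Ppargc1a, Ppargc1b, Ppara and Ebf2 had medians of 4.72 to 16.1. Their ranges over mice overlapped in the TH and temperature experiments, while in the diet experiment Ppara and Ebf2 (at least 13.2 and 13.4) lay above Ppargc1b (at most 11.1). The 3 ERR genes were not equally abundant: Esrra had a median of 5.85, 5.35 and 3.95, Esrrg 4.58, 2.31 and 3.61, and Esrrb 0.0932, 0.267 and 0.192. Esrra and Esrrg overlapped over mice in every experiment, whereas the highest Esrrb value, 1.03 in a CTRL mouse at 4 °C, was below the lowest Esrra value. Prdm16 was the second lowest member, at 1.56, 1.20 and 1.88.

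**Figure D2:**
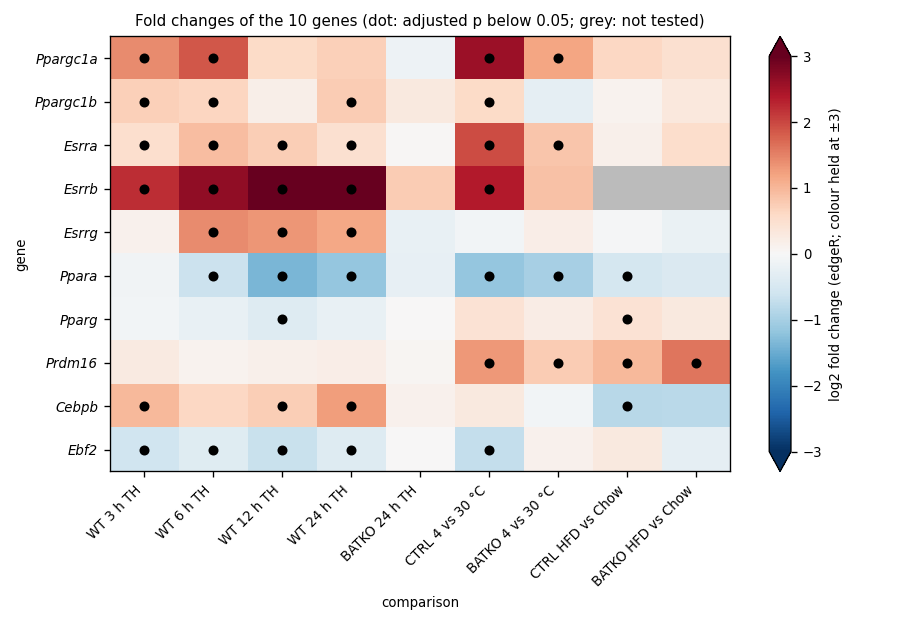
Log2 fold changes of the 10 genes in the 9 comparisons within a genotype, as colour held at ±3, with a dot where the adjusted p was below 0.05 and grey where the gene was not tested. Each of the 10 genes is called in at least 1 comparison, and the column of BATKO mice after TH holds no dot.

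In hypothyroid WT mice, TH was followed by higher Ppargc1a, Ppargc1b and ERR transcripts and lower Ppara and Ebf2. At 3 h, 6 of the 10 members passed the test (5 higher, 1 lower), against 9.19% of the 13003 genes tested. At 6 h it was 7 (5 higher, 2 lower), against a background of 23%. The 12 h mice also gave 7 (4 higher, 3 lower), against 25.7%, and at 24 h 7 members passed (5 higher, 2 lower), against 32.7%. The median difference of the 10 members was 0.38, 0.63, 0.37 and 0.60 log2 at the 4 times, beside medians over all genes of -0.018 to 0.0098. The 4 comparisons share the same PTU mice. Esrrb, called at all 4 times, passed the count filter only through the mice after TH. Some marker sums also stood apart from the PTU mice without overlap. Endothelial markers (5 genes such as Pecam1 and Cdh5) were at 307 to 328 CPM under PTU, higher at 3 h (339 to 358 CPM) and lower at 12 h (235 to 298 CPM). White adipocyte markers (Lep, Retn and Nnat) were lower at 3 h (56.8 to 102 against 105 to 117 CPM), Schwann cell markers lower at 12 h (56.2 to 65.9 against 66.9 to 77 CPM) and brown adipocyte markers higher at 6 h (17605 to 20501 against 14178 to 16246 CPM). At 24 h all 8 marker sums read here overlapped with PTU. Their part in the member differences was not tested. Calls at 3 h were the least firm: leaving out 1 mouse at a time left 1 to 5 members called, and Ebf2 was the member that passed in all 8 of those fits.

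In BATKO mice, none of the 10 members passed 24 h after TH, and the background was 0% of 14178 genes. edgeR called 0 genes there and DESeq2 also 0, while 673 genes had an unadjusted p below 0.05. The differences were 0.29 for Ppargc1b, 0.76 for Esrrb, 0.12 for Cebpb, 0.05 for Prdm16, 0.01 for Pparg and 0.01 for Ebf2, and between -0.26 and 0.02 for the other 4. The difference between the genotypes' responses was tested directly: 4 members passed, with Esrrb, Esrrg and Cebpb lower and Ppara higher in the BATKO response than in the WT response, against 12.3% of all genes. Not called were Ppargc1a (-0.88), Ppargc1b (-0.48), Esrra (-0.46), Prdm16 (-0.16), Pparg (0.24) and Ebf2.

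In the cold, 7 of 10 members passed in CTRL mice (5 higher, 2 lower) and 4 in BATKO mice (3 higher, 1 lower), where the backgrounds were 49.1% and 40.3% of 13267 genes. The median difference of the members was 0.50 in CTRL and 0.21 in BATKO mice. No member passed the test of the difference between the 2 responses, and 1.12% of genes did. edgeR called 149 genes there with 2471 at an unadjusted p below 0.05, and DESeq2 called 656 genes, among them Ppargc1a, Ppargc1b, Esrra and Ebf2. The differences between the responses of the members not described further on were -1.50 for Esrrb, 0.27 for Esrrg, 0.17 for Ppara, -0.21 for Pparg and -0.37 for Cebpb, and in BATKO mice alone the cold differences of Esrrg and Pparg were 0.19 and 0.22, with no call. Leaving out 1 mouse moved the edgeR count from 5 genes (without CTRL mouse 1 at 4 °C) to 907 (without CTRL mouse 5 at 4 °C). Between the genotypes at 4 °C, 2 members passed, against 2.16% (286 genes, and 53 to 565 with 1 mouse left out, the extremes without CTRL mouse 2 and CTRL mouse 5), and at 30 °C none did, against 0.00754%: 1 gene of 13267 by edgeR, 8 by DESeq2, and 1209 at an unadjusted p below 0.05.

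Diet moved fewer genes. On HFD, 4 of the 9 members tested passed in CTRL mice (2 higher, 2 lower) and 1 in BATKO mice, where the backgrounds were 3.94% and 0.0696% of 12932 genes. The 509 genes called in CTRL mice became 166 without Chow mouse 2 and 716 without Chow mouse 3. Esrrb, with a mean normalized count of 10 or less there, was not tested. The BATKO result rests on 2 Chow mice. Among the marker lists reported here, those that stood apart by diet are given next. In CTRL mice macrophage markers (5 genes such as Adgre1 and Cd68) were at 59.7 to 139.7 CPM on HFD and 40.4 to 52.0 CPM on Chow, without overlap. In BATKO mice macrophage sums were at 48.6 to 86.9 CPM on HFD and 92.0 to 116 CPM on Chow, the opposite order to CTRL mice, brown adipocyte sums at 10316 to 11438 and 8287 to 9584 CPM and erythroid sums at 583 to 1187 and 453 to 484 CPM, again without overlap. Their part in the member differences was not tested. No member and no gene passed for the difference between the diet responses (0% called by edgeR, 740 genes at an unadjusted p below 0.05, 0 by DESeq2), for BATKO against CTRL on HFD (0%, 691 genes, 9 by DESeq2) or for BATKO against CTRL on Chow (0%, 1024 genes, 33 by DESeq2). The differences between the diet responses ran from -0.56 (Ebf2) to 0.65 (Prdm16). These counts of genes depended on the setting: with no filter on low counts edgeR called 216, 59 and 290 genes in the 3 contrasts, and on Chow 114 when only the 2 groups were fitted, in each case without a member.

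**Figure D3:**
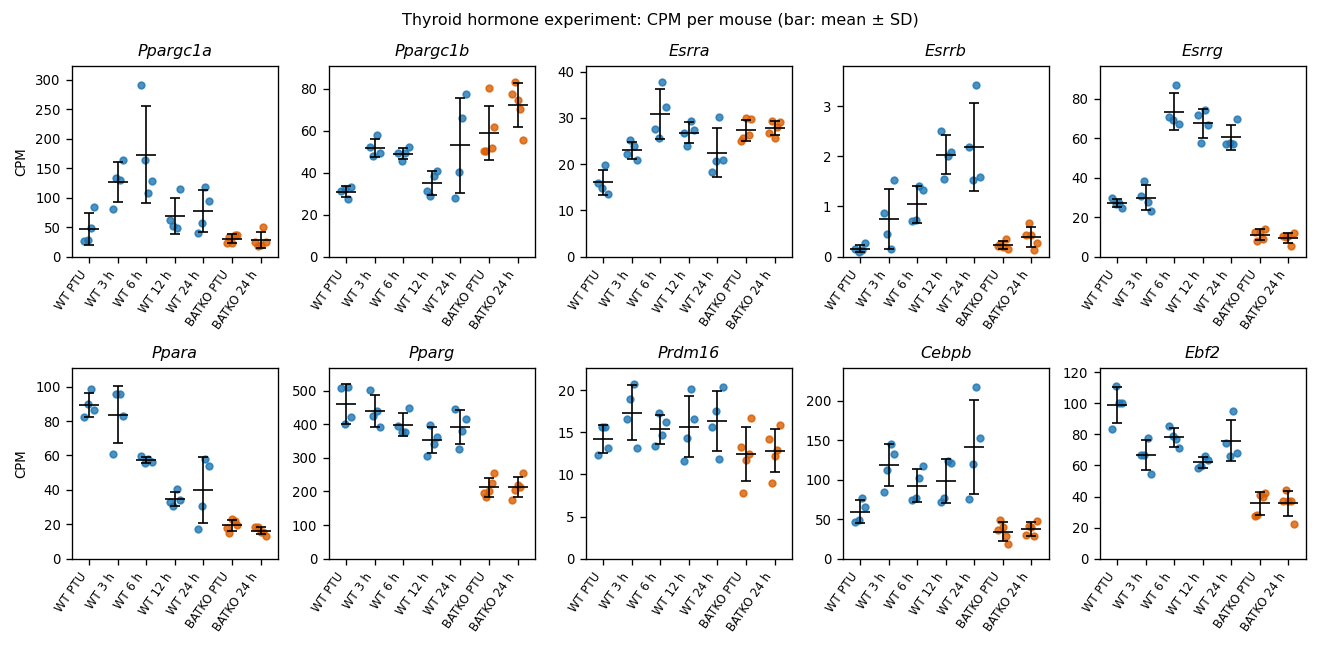
CPM of the 10 genes in each mouse of the TH experiment (blue WT, orange BATKO), with the group mean and SD in black; each panel has its own axis from 0. Esrrb and Esrrg are higher from 6 h on in WT mice, and the BATKO groups lie below the WT groups for Esrrg, Pparg and Ebf2.

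Ppargc1a, the coactivator that cold and TH are known to raise, was at 26.4, 27.7, 49.2 and 84.2 CPM in the 4 WT PTU mice. It was at 81.2, 133, 130.5 and 164 CPM 3 h and at 292, 164, 109 and 128 CPM 6 h after TH. By 12 and 24 h the values were 61.3, 52.5, 48.6 and 115 and 40.0, 57.3, 118 and 94.7 CPM. The 6 h mice all lay above the PTU mice, and the 3 h mice did so except for 1 value of 81.2 below the highest PTU mouse. The rise was 1.42 ± 0.40 (SE) at 3 h and 1.86 ± 0.40 at 6 h on the log2 scale (edgeR, Benjamini-Hochberg adjusted p = 0.027 and 0.00199), a 3.64-fold higher level at 6 h. At 12 and 24 h the differences were 0.57 and 0.72 (edgeR adjusted p = 0.315 and 0.168), and the PTU mouse at 84.2 CPM decided the last: without it the adjusted p at 24 h was 0.0297. The 3 h call was lost, with adjusted p of 0.0528 to 0.0987, when WT PTU mouse 2 or 3 or 3 h mouse 8 or 11 was left out.

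BATKO mice had Ppargc1a at 23.3, 33.4, 22.3, 37.3 and 37.1 CPM under PTU and 24.6, 17.9, 19.6, 51.1 and 24.5 CPM 24 h after TH. These groups overlapped, with 1 treated mouse at 51.1 CPM above all the others, and the difference was -0.16 ± 0.35 (95% interval -0.86 to 0.55). BATKO mice were not sampled at 3 or 6 h, the times at which Ppargc1a was called in WT mice.

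Cold gave the largest Ppargc1a change. CTRL mice had 20.0, 17.2, 16.9 and 38.0 CPM at 30 °C and 60.4, 149 and 201 CPM at 4 °C, a rise of 2.57 ± 0.35 log2 or 5.95-fold (edgeR adjusted p = 1.74e-05). In BATKO mice the values were 23.1, 15.3, 16.4, 16.1 and 24.6 CPM at 30 °C and 37.6, 38.9, 58.1 and 40.1 CPM at 4 °C, a rise of 1.19 ± 0.30 or 2.28-fold (edgeR adjusted p = 0.00522). Neither pair of groups overlapped, and the 3 CTRL mice at 4 °C were all above the 4 BATKO mice at 4 °C, the nearest 2 mice standing at 60.4 and 58.1 CPM. At 4 °C the level was lower in BATKO, with a BATKO minus CTRL difference of -1.65 ± 0.34 (edgeR adjusted p = 0.022), a call that was lost when only these 2 groups were fitted (0.057) and without CTRL mouse 2 or BATKO mouse 7, 8 or 12 (0.0512 to 0.0782). The difference between the responses, -1.38 ± 0.46, had an edgeR adjusted p of 0.119 and a DESeq2 adjusted p of 0.0434.

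On HFD, CTRL mice had Ppargc1a at 57.0, 69.1, 83.5 and 49.6 CPM against 31.4, 58.3, 31.1 and 48.0 CPM on Chow, which overlapped and did not pass (difference 0.62 ± 0.26, edgeR adjusted p = 0.188; 0.0143 with no filter on low counts).

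Ppargc1b is the related coactivator that is less responsive to cold in the textbook account. WT PTU mice were at 31.4, 32.0, 27.4 and 33.1 CPM and the 3 h and 6 h mice at 52.0, 48.1, 57.8 and 49.2 and 49.2, 45.4, 49.4 and 52.2 CPM. Both later groups lay wholly above the PTU mice, and the level was 1.65-fold and 1.57-fold higher (edgeR adjusted p = 0.0283 and 0.0249). Those calls were lost in 5 and 4 of 8 fits that left out 1 mouse, with adjusted p up to 0.0704. At 12 h the values were 31.4, 28.8, 38.6 and 40.9 CPM, which overlapped with PTU, and at 24 h they were spread from 28 to 77.3 CPM with a called difference of 0.77 ± 0.20 (edgeR adjusted p = 0.00574).

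At 4 °C, CTRL mice had Ppargc1b at 32.3, 40.5 and 38.4 CPM against 24.0, 32.0, 18.1 and 25.1 CPM at 30 °C, groups that were apart by less than 1 CPM at the nearest mice. The rise of 0.58 ± 0.19 passed (edgeR adjusted p = 0.0194), and was lost without CTRL mouse 2 or 5 at 4 °C or CTRL mouse 21 at 30 °C (0.0507 to 0.0667). BATKO mice had 31.4, 27.4, 33.3 and 22.1 CPM at 4 °C and 36.9, 37.6, 36.6, 24.6 and 36.3 CPM at 30 °C, with a difference of -0.27 ± 0.17 that did not pass. The test of the difference between the genotypes' responses gave -0.85 ± 0.26 (edgeR adjusted p = 0.0949, DESeq2 adjusted p = 0.038). Neither diet comparison passed for Ppargc1b (differences 0.11 in CTRL and 0.31 in BATKO mice).

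Among the ERRs, orphan receptors that serve as DNA-binding partners of the PGC-1 proteins, Esrra is the member best known for oxidative phosphorylation genes. WT PTU mice had Esrra at 15.9, 14.9, 19.9 and 13.5 CPM, and the 6 h mice were at 27.6, 25.6, 37.7 and 32.4 CPM, all above them. It rose at all 4 times, by 0.49, 0.92, 0.75 and 0.48 log2 (edgeR adjusted p = 0.0452, 0.000161, 0.000978 and 0.0196). The 6 and 12 h calls passed in every fit that left out 1 mouse. The 3 h call was kept in 1 of 8 such fits, that without WT PTU mouse 4, with adjusted p up to 0.127, and the 24 h call was lost without PTU mouse 3 or 5 or 24 h mouse 27 (0.0562 to 0.106). In BATKO mice Esrra was 25.0 to 29.9 CPM under PTU and 25.7 to 29.3 CPM after TH, a difference of 0.02 ± 0.12 (95% interval -0.22 to 0.27).

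Cold raised Esrra in both genotypes. CTRL mice went from 12.5, 21.3, 17.8 and 16.3 CPM at 30 °C to 89.0, 65.7 and 43.2 CPM at 4 °C, 3.88-fold (log2 1.96 ± 0.21, edgeR adjusted p = 1.49e-06). BATKO mice went from 18.9, 24.6, 19.9, 22.3 and 20.4 CPM to 39.9, 35.3, 42.0 and 34.6 CPM, 1.79-fold (log2 0.84 ± 0.18, edgeR adjusted p = 0.0015). Neither pair of groups overlapped. CTRL mouse 1 at 4 °C had the highest Esrra, 89.0 CPM, and the lowest Ppargc1a of its group, 60.4 CPM, and CTRL mouse 5 had the reverse, 43.2 and 201 CPM. The BATKO minus CTRL difference between the responses, -1.12 ± 0.27, was just outside the threshold in edgeR (adjusted p = 0.0556) and inside it with DESeq2 (0.00899), without the count filter (0.0499), with a stricter filter (0.0466), or without CTRL mouse 5 at 4 °C (0.0109) or BATKO mouse 13 at 30 °C (0.0498). At 4 °C, Esrra was lower in BATKO than in CTRL mice, with a difference of -0.80 ± 0.20 (edgeR adjusted p = 0.0492), which held in 1 of 7 fits that left out a mouse, that without CTRL mouse 5, and reached 0.247 in the others.

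Esrrb was close to the limit of detection in hypothyroid mice. The WT PTU mice had 2, 1, 2 and 3 counts each, or 0.0913 to 0.264 CPM, so that single-mouse values there carry a counting error of about their own size. The 3 h mice had counts of 11, 6, 2 and 24 and the 6 h mice 9, 8, 21 and 19. In the 12 h mice they were 31, 14, 23 and 17, and in the 24 h mice 23, 16, 46 and 23. All mice from 6 h on lay above all PTU mice. Summed over the 4 mice of a group and set against total counts, the ratio to PTU was 5.31 at 3 h (95% exact interval 2.47 to 13.1), 7.64 at 6 h (3.62 to 18.5), 13.0 at 12 h (6.32 to 31.1) and 15.9 at 24 h (7.80 to 37.8), intervals that cover counting error only. The fitted differences passed at every time (edgeR adjusted p = 0.0256, 0.00237, 4.03e-05 and 1.80e-05), and the 3 h call was lost in 5 of 8 fits that left out a mouse, with adjusted p of 0.14 without 3 h mouse 11. Esrrb passed the filter, a mean normalized count above 10, only through the mice after TH. Its group mean was 2 counts under PTU and 27 at 24 h. These tests were thus run on a gene admitted by the groups in which it was high. BATKO mice had 3, 4, 3, 5 and 2 counts under PTU and 7, 10, 6, 2 and 3 counts after TH, a ratio of 1.80 (0.95 to 3.50), and the BATKO response was lower than the WT response, with a difference of -2.97 ± 0.78 (edgeR adjusted p = 0.0113). That fit, of all 7 groups, also admitted Esrrb through the WT mice after TH, since the BATKO group means were 3.4 and 5.6 counts. In the fit of the 4 groups compared alone Esrrb was too low to be tested.

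Cold also raised Esrrb, at 6.21, 5.90 and 4.83 CPM in the CTRL mice at 4 °C and 0.240, 1.44, 2.00 and 0.583 CPM at 30 °C (log2 2.39 ± 0.42, edgeR adjusted p = 0.000197). BATKO mice were at 1.89, 1.95, 3.19 and 1.79 CPM and 1.10, 1.21, 0.957, 1.22 and 1.42 CPM, which did not overlap but did not pass (log2 0.88 ± 0.38, edgeR adjusted p = 0.0762). Skeletal muscle markers, 11 genes such as Acta1 and Ckm, summed to 9.34 to 5059.6 CPM in CTRL mice at 30 °C and to 157 to 701 CPM at 4 °C. In the CTRL mice at 30 °C the order of the muscle sums (9.34, 61.2, 2116 and 5059.6 CPM) was the order of Esrrb (0.240, 0.583, 1.44 and 2.00 CPM), while at 4 °C it was the reverse. Without the 4 mice whose muscle sum was above 2000 CPM, all of them at 30 °C, the Esrrb difference was 3.78 in CTRL mice (edgeR adjusted p = 4.73e-05) and 0.96 in BATKO mice (0.036). In that fit, chosen after seeing the data, the members called in BATKO mice gained Esrrb and lost Ppara (0.0565). The part of muscle content in the member differences was not tested further. Between the genotypes at 4 °C, the Esrrb difference of -1.36 ± 0.40 had an adjusted p of 0.0897 in edgeR, 0.0188 in DESeq2 and 0.0381 in edgeR without those 4 mice.

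Esrrg, the ERR of highly oxidative tissues such as heart and muscle, passed after TH and in no temperature or diet comparison within a genotype. WT PTU mice were at 29.4, 26.8, 27.2 and 24.5 CPM and 3 h mice at 30.6, 38.1, 27.4 and 23 CPM, which overlapped. The 6 h mice were at 70.5, 69.0, 87.1 and 67.2 CPM, the 12 h mice at 71.6, 57.7, 74.1 and 66.7 CPM and the 24 h mice at 57.3, 57.5, 56.9 and 69.7 CPM. Every mouse from 6 h on was above every mouse at 0 and 3 h, and the level was 2.69-, 2.52- and 2.23-fold that of PTU (edgeR adjusted p = 1.50e-07, 2.29e-07 and 9.81e-07). BATKO mice had 12.4, 8.04, 12.3, 8.66 and 14.2 CPM under PTU and 10.3, 9.94, 10.5, 5.18 and 11.8 CPM after TH, with a difference of -0.22 ± 0.17 (95% interval -0.57 to 0.13). The BATKO minus WT difference between the responses was -1.38 ± 0.25 (edgeR adjusted p = 0.000507). It passed also when the fit held the 4 groups compared and no others, a fit in which Esrrb was too low to be tested. Muscle markers summed to 101 to 774 CPM in PTU mice and 24.8 to 299 CPM in 3 h mice. At 6, 12 and 24 h they summed to 321 to 1867, 26 to 363 and 320 to 1316 CPM. Their part in the Esrrg differences was not tested. In the cold the CTRL mice had 8.24, 15.0 and 25.8 CPM against 15.9, 14.1, 20.4 and 18.6 CPM, overlapping values with a difference of -0.08 ± 0.38 (95% interval -0.88 to 0.72).

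Ppara, the receptor that drives fatty acid oxidation genes, passed in 6 of the 9 comparisons within a genotype, each time lower. In the other 3 its difference was also negative without a call: -0.11 at 3 h in WT mice, -0.26 in BATKO mice after TH, and -0.44 in BATKO mice on HFD, which were at 52.4 to 67.6 CPM against 80.7 to 83.4 CPM on Chow with no overlap. WT PTU mice were at 82.4, 89.7, 98.6 and 86.4 CPM and the 12 h mice at 33.1, 30.5, 40.3 and 34.0 CPM. By 24 h the values had spread to 17.1, 30.8, 57.9 and 54.2 CPM, all still below PTU. It fell, with log2 differences of -0.65 at 6 h, -1.36 at 12 h and -1.16 at 24 h (edgeR adjusted p = 0.0466, 0.000217 and 0.000739). The 6 h call was lost whichever mouse of its 2 groups was left out (0.0615 to 0.0975), although the 6 h mice (55.7 to 59.5 CPM) were all below the PTU mice. BATKO mice started from 15.1 to 23 CPM under PTU, below every WT PTU mouse, and had 13.4 to 18.4 CPM after TH. The BATKO minus WT difference between the responses was 0.90 ± 0.29 (edgeR adjusted p = 0.0422), a call lost in 12 of 18 fits that left out a mouse (0.0551 to 0.0959) and in the fit of the 4 groups alone (0.0898).

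Cold and HFD were also accompanied by lower Ppara. CTRL mice had 9.02, 21.8, 25.9 and 47.4 CPM at 30 °C and 11.3, 13.0 and 10.5 CPM at 4 °C, overlapping because 1 warm mouse stood at 9.02 CPM. The difference was -1.16 ± 0.38 (edgeR adjusted p = 0.0172), lost without CTRL mouse 5 at 4 °C (0.0529) or CTRL mouse 22 at 30 °C (0.07). BATKO mice had 22.4, 26.5, 26, 40.3 and 42.0 CPM and 16.1, 14.8, 16.0 and 16.2 CPM, without overlap, and a difference of -0.99 ± 0.32 (edgeR adjusted p = 0.0214), lost without BATKO mouse 8 at 4 °C (0.0512) or 17 at 30 °C (0.0508). CTRL mice on Chow had 56.9, 91.8, 73.9 and 82.9 CPM and those on HFD 51.7, 53.5, 50.5 and 56.8 CPM, groups that touched without overlap, and a difference of -0.52 ± 0.13 (edgeR adjusted p = 0.0408) that was lost in 6 of 8 fits that left out a mouse (up to 0.132).

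Pparg, the most abundant member, passed in 2 of the 9 comparisons within a genotype. WT PTU mice were at 509, 400.0, 512 and 421 CPM and 12 h mice at 306, 398, 341 and 363 CPM, the time at which its fall was called (log2 -0.38 ± 0.11, edgeR adjusted p = 0.0171). The differences at 3, 6 and 24 h, -0.09, -0.22 and -0.23, were also negative but did not pass. That call was lost without PTU mouse 2 or 4 or 12 h mouse 19 (0.0561 to 0.0602). In the cold, CTRL mice had 449.5, 371 and 375 CPM against 375, 320.3, 236 and 253 CPM, just outside the threshold (log2 0.43 ± 0.17, edgeR adjusted p = 0.0514; DESeq2 0.0384; without CTRL mouse 19 at 30 °C 0.014). On HFD it was higher in CTRL mice, at 439, 472, 396 and 382 CPM against 320.4, 313, 319 and 302 CPM with no overlap (log2 0.43 ± 0.11, edgeR adjusted p = 0.04), a call that did not survive the loss of any 1 of the 8 mice (0.0518 to 0.108). The 3 BATKO mice on HFD had 392, 426 and 424 CPM and the 2 on Chow 283 and 391 CPM.

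**Figure D4:**
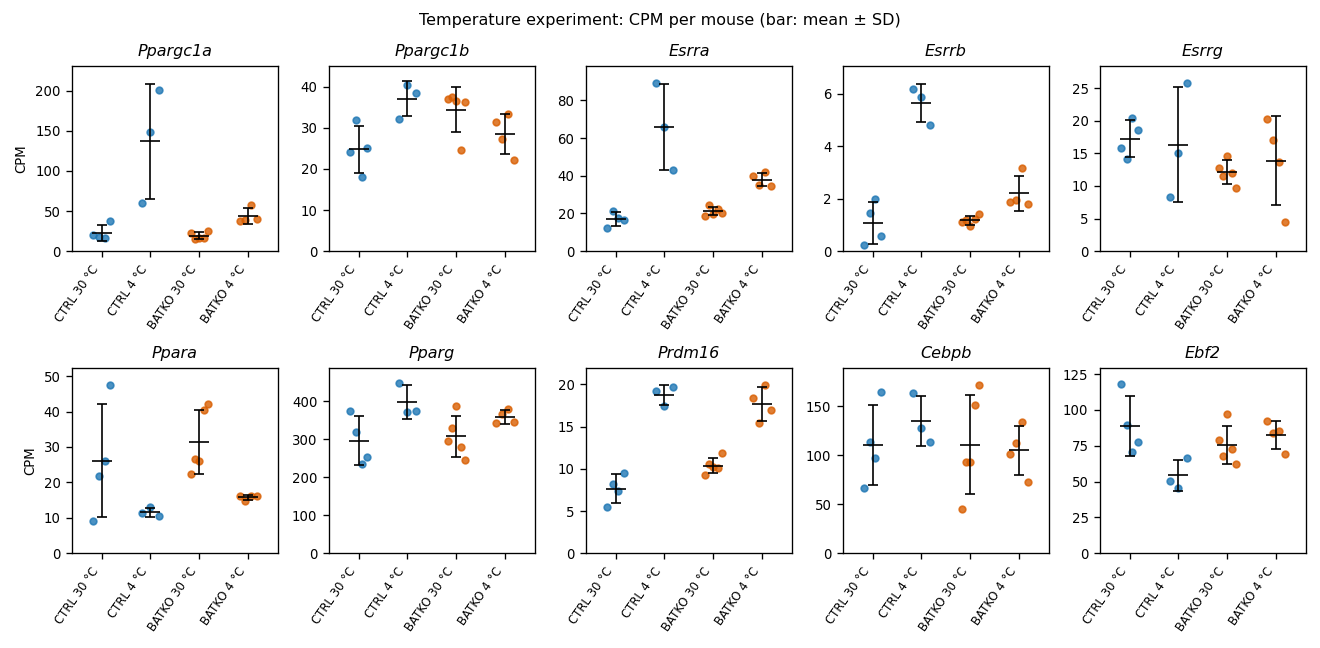
CPM of the 10 genes in each mouse of the temperature experiment (blue CTRL, orange BATKO), with group mean and SD in black and axes from 0. Ppargc1a, Esrra and Prdm16 are higher at 4 °C in both genotypes with no overlap, and Ebf2 is lower at 4 °C in the CTRL mice.

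Prdm16, the zinc finger regulator that sets the brown fat programme, did not pass at any time after TH (WT differences of 0.10 to 0.27; 95% interval at 24 h -0.16 to 0.56). Cold raised it in both genotypes. CTRL mice went from 5.43, 8.24, 7.40 and 9.52 CPM at 30 °C to 19.2, 17.4 and 19.6 CPM at 4 °C (log2 1.30 ± 0.16, edgeR adjusted p = 8.85e-06). BATKO mice went from 9.25, 10.6, 10.2, 10.1 and 11.8 CPM to 18.4, 15.4, 20.0 and 16.9 CPM (log2 0.76 ± 0.14, edgeR adjusted p = 0.000503). Neither pair overlapped, and the difference between the responses, -0.53 ± 0.22, did not pass (edgeR adjusted p = 0.198). At 30 °C the BATKO mice were higher than the CTRL mice except for 1 overlapping value, a difference of 0.45 ± 0.15 (edgeR adjusted p = 0.542).

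HFD raised Prdm16 too. CTRL mice had 17.5, 21.1, 28 and 23.2 CPM on HFD and 14.1, 8.76, 15.2 and 8.08 CPM on Chow, a 1.95-fold difference with no overlap (log2 0.96 ± 0.20, edgeR adjusted p = 0.0177). It was lost without HFD mouse 10 or 11 or Chow mouse 2 or 4 (0.0505 to 0.0644). BATKO mice had 33.6, 26.5 and 29.1 CPM on HFD and 10.1 and 9.37 CPM on Chow (log2 1.61 ± 0.27, edgeR adjusted p = 0.0416), and no fit that left out 1 of these 5 mice kept the call (0.0545 to 0.676).

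**Figure D5:**
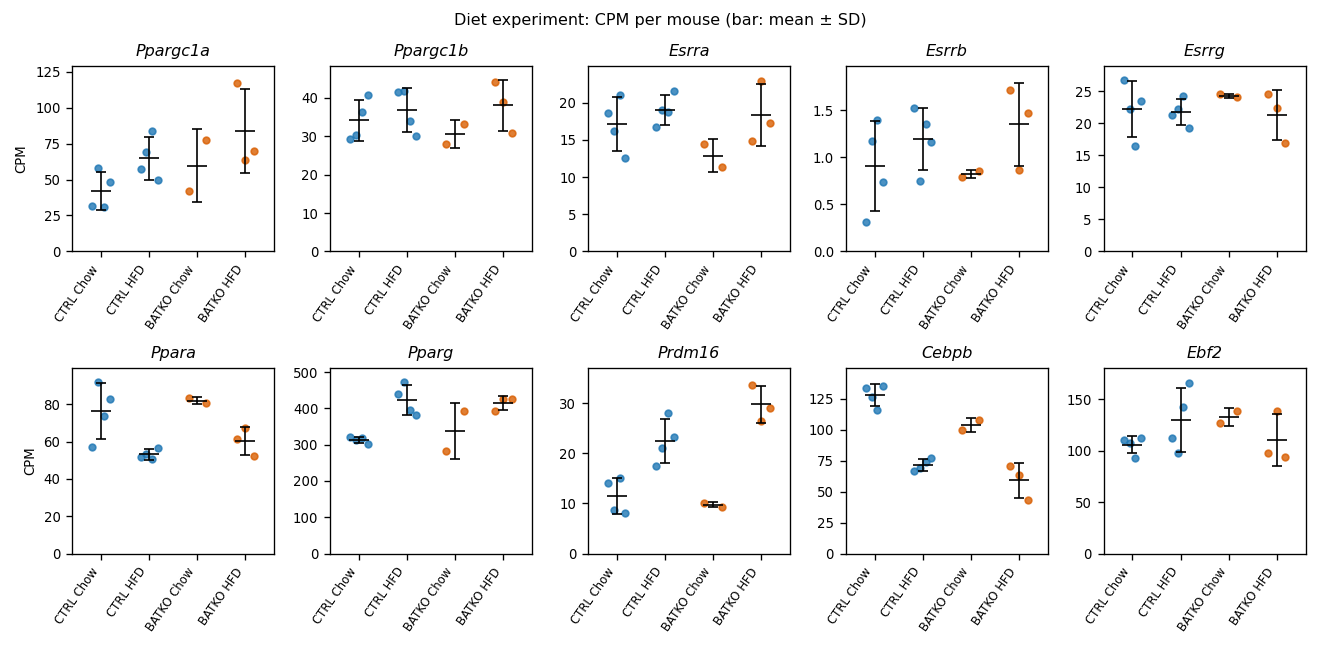
CPM of the 10 genes in each mouse of the diet experiment (blue CTRL, orange BATKO), with group mean and SD in black and axes from 0; BATKO Chow holds 2 mice. Prdm16 is higher and Cebpb lower on HFD in both genotypes with no overlap, though the BATKO difference of Cebpb did not pass the test.

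Cebpb, a basic leucine zipper factor that partners with PRDM16 and responds to cAMP, rose after TH. WT PTU mice were at 45.8, 49.1, 77.3 and 65.7 CPM, 3 h mice at 84.6, 112, 145 and 133 CPM and 24 h mice at 75.5, 119, 218 and 152 CPM. The 3 h mice all lay above PTU, and 1 of the 24 h mice, at 75.5 CPM, lay within the PTU range. Differences were 0.98, 0.62, 0.73 and 1.24 at the 4 times (edgeR adjusted p = 0.0243, 0.0958, 0.0486 and 0.00118), so the 6 h value alone did not pass. It did pass with no count filter (0.0305) or with 2 groups fitted (0.0265). The 24 h call held in all 8 fits that left out a mouse, the 3 h call was lost without PTU mouse 2 or 3 or 3 h mouse 9 or 11 (0.063 to 0.0854), and the 12 h call was lost in 5 of 8 (up to 0.147). In BATKO mice the values were 35.8, 49.1, 40.0, 28.3 and 18.4 CPM under PTU and 29.8, 41.5, 39.5, 28.1 and 48.3 CPM after TH. The BATKO minus WT difference between the responses was -1.12 ± 0.37 (edgeR adjusted p = 0.0446), lost in 11 of 18 fits that left out a mouse (up to 0.145) and in the fit of the 4 groups alone (0.073).

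On HFD Cebpb was lower. CTRL mice had 66.6, 68.8, 74.1 and 77.3 CPM on HFD and 134, 126, 116 and 136 CPM on Chow, with no overlap, and the difference of -0.83 ± 0.13 passed in all 8 fits that left out a mouse (edgeR adjusted p = 0.00388, at most 0.015). BATKO mice showed 71.0, 63.2 and 43.5 CPM on HFD against 99.8 and 108 CPM on Chow, a difference of -0.81 ± 0.17 (edgeR adjusted p = 0.083, DESeq2 adjusted p = 0.00129). Temperature gave no call for Cebpb: in CTRL mice the difference was 0.29 ± 0.36 and in BATKO mice -0.08 ± 0.32. Exons of Cebpb share 312 of 1504 bases with Tmem189 on the other strand, and since the strand setting of the counting is not given in the sources used here, reads of the 2 genes there cannot be told apart. The same holds for 73 exon bases shared by Esrra and Trmt112, 109 shared by Prdm16 and B230104I21Rik and 424 shared by Ebf2 and Gm10860, while Mir6990 lies within an Esrra exon on the same strand.

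Ebf2, an early brown fat lineage factor, fell after TH at all 4 times. WT PTU mice were at 83.7, 111, 100.4 and 100.3 CPM, 3 h mice at 66.9, 66.9, 77.8 and 54.4 CPM and 12 h mice at 58.6, 60.0, 65.8 and 63.7 CPM, both wholly below PTU. The 6 h mice (71.1 to 85.6 CPM) and 24 h mice (66.2 to 94.9 CPM) overlapped with them. The differences were -0.60, -0.36, -0.67 and -0.38 (edgeR adjusted p = 0.00331, 0.0371, 0.000349 and 0.0196). The 3 and 12 h calls passed in every fit that left out a mouse, whereas the 6 h call was lost in 6 of 8 (up to 0.125) and the 24 h call without PTU mouse 3 or 24 h mouse 26 or 28 (0.0661 to 0.075). With the BATKO mice in the fit, the 6 and 24 h values had adjusted p of 0.13 and 0.0721. In BATKO mice Ebf2 was 27.4 to 42.0 CPM under PTU and 22.3 to 44.5 CPM after TH. The test of the difference between genotypes gave 0.39 ± 0.22 (edgeR adjusted p = 0.253). Fibroblast and preadipocyte markers, 5 genes such as Pdgfra and Dcn, summed to 185 to 276 CPM in the WT PTU mice, to 212 to 252 CPM in the 3 h mice, to 209 to 260.3 and 198 to 227 CPM at 6 and 24 h, and to 135 to 239 CPM in the 12 h mice. The 3, 6 and 24 h sums lay within the PTU range, and the 12 h sums, at the time of the lowest Ebf2 mean, reached below it; their part in the Ebf2 differences was not tested.

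In the cold, Ebf2 fell in CTRL mice, from 118, 89.4, 70.7 and 77.4 CPM at 30 °C to 50.6, 45.5 and 66.8 CPM at 4 °C (log2 -0.71 ± 0.19, edgeR adjusted p = 0.0063). BATKO mice had 78.7, 67.6, 96.9, 72.6 and 62.4 CPM and 92.5, 84.1, 85.5 and 69.2 CPM, overlapping (log2 0.13 ± 0.17). The difference between the responses was 0.84 ± 0.26, which did not pass in edgeR (adjusted p = 0.0959) and did in DESeq2 (0.0407) and without CTRL mouse 5 at 4 °C (0.0361). The fibroblast and preadipocyte markers moved with it in CTRL mice: their sum was 130.2 to 144 CPM in CTRL mice at 4 °C and 189 to 254 CPM at 30 °C, and 146 to 202 and 164 to 207 CPM in BATKO mice, with none of the 5 at 0. Their part in the Ebf2 result was not tested. Brown adipocyte markers summed to 24655 to 28314 CPM at 4 °C and 5680.3 to 7063 CPM at 30 °C in CTRL mice, and erythroid markers (Alas2 and 4 globin genes) to 766 to 1711 and 177 to 333 CPM. Of the brown adipocyte markers, Ucp1, Cidea and Elovl3 are also on the list of brown fat identity genes read below, and each was called higher in this comparison. Among the other lists reported here, macrophage sums (40.2 to 44.7 against 45.4 to 67.9 CPM) were lower at 4 °C without overlap. In BATKO mice the brown adipocyte (16592 to 25288 against 5667 to 6881 CPM) and erythroid sums (771 to 1111 against 182 to 494 CPM) were higher at 4 °C without overlap. Their part in the member differences was not tested.

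The remaining diet values of the members overlapped between HFD and Chow in CTRL mice. Esrra was at 16.8 to 21.6 CPM on HFD and 12.6 to 21.1 CPM on Chow, Esrrg at 19.2 to 24.3 and 16.5 to 26.8 CPM, and Ebf2 at 97.5 to 166 and 93.1 to 112 CPM, with differences of 0.15, -0.03 and 0.29 that did not pass. In BATKO mice the differences that did not pass were 0.52 for Esrra, 0.48 for Ppargc1a, 0.30 for Pparg, -0.19 for Esrrg and -0.27 for Ebf2, beside those of Ppargc1b, Ppara and Cebpb given above. Esrrb counts were 3 to 13 per mouse in that experiment.

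BATKO and WT mice of the TH experiment differed in most genes. Under PTU, 7 members passed, against a background of 70.3%, and 24 h after TH 9 passed, against 69.7%, so that these counts do not set the members apart. Under PTU the BATKO mice had lower Ppara (-2.20 log2), Ebf2 (-1.48), Esrrg (-1.28), Pparg (-1.12) and Cebpb (-0.79) and higher Ppargc1b (0.93) and Esrra (0.76), with edgeR adjusted p of 1.41e-10 to 0.00868. At 24 h Ppargc1b and Esrra were again higher in BATKO mice, and Ppargc1a, Esrrb, Esrrg, Ppara, Pparg, Cebpb and Ebf2 were lower; the calls of Ppargc1b and Esrra were each lost in 6 of 9 fits that left out a mouse. The 24 h differences were 0.44 for Ppargc1b, 0.30 for Esrra, -1.49 for Ppargc1a, -2.44 for Esrrb, -2.66 for Esrrg, -1.30 for Ppara, -0.87 for Pparg, -1.92 for Cebpb and -1.09 for Ebf2. Not called were Prdm16 at both times (-0.20 and -0.35) and, under PTU, Ppargc1a (-0.61) and Esrrb (0.53). The BATKO libraries were for the most part deeper, at 13593987 to 18073627 counts against 7805938 to 14615534 in WT mice, and brown adipocyte markers summed to 9814 to 11834 CPM against 14178 to 16246 CPM under PTU. Other marker sums also stood apart under PTU without overlap: fibroblast and preadipocyte markers at 103 to 152 CPM in BATKO against 185 to 276 CPM in WT mice, white adipocyte markers at 28.1 to 49.3 against 105 to 117 CPM, and endothelial markers, the higher in BATKO, at 396 to 449 against 307 to 328 CPM. At 24 h the fibroblast and preadipocyte (104 to 179 against 198 to 227 CPM), white adipocyte (28.6 to 42.9 against 54.1 to 106 CPM), macrophage (13.0 to 22.4 against 26.4 to 40.1 CPM) and Schwann cell sums (36.7 to 56.3 against 63.6 to 88.4 CPM) were lower and the endothelial sums higher (408 to 555 against 296 to 330.0 CPM) in BATKO mice without overlap, while the brown adipocyte sums overlapped (8809 to 14958 against 12189 to 19217 CPM). Their part in the member differences was not tested. Genotype and library set cannot be told apart here. In the other 2 experiments, where other mice served as controls, the BATKO minus CTRL values of the members are given side by side, with no test between experiments. At 30 °C, with no call, they were 0.28 for Ppara, 0.05 for Pparg, -0.23 for Ebf2, 0.01 for Cebpb, -0.51 for Esrrg, 0.47 for Ppargc1b, 0.32 for Esrra, -0.27 for Ppargc1a and 0.14 for Esrrb. At 4 °C, Ppargc1a (-1.65) and Esrra (-0.80) were called lower, Esrrb was at -1.36, Ebf2 at 0.61, Ppara at 0.45 and the other members between -0.38 and -0.09. On Chow, again with no call, the 9 members tested lay between -0.41 (Esrra) and 0.50 (Ppargc1a), and on HFD between -0.28 (Cebpb) and 0.40 (Prdm16).

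Other genes of these pathways were read from 7 lists. In CTRL mice in the cold, all 11 brown fat identity genes rose (median difference 2.12 log2), among them the fatty acid elongase Elovl3 (10.33 ± 0.77, edgeR adjusted p = 6.95e-08), Letmd1 (2.12 ± 0.19) and Otop1 (2.52 ± 0.24). Of 18 known ERR targets of oxidative metabolism 15 rose and none fell (median 0.79), among them the carnitine carrier Slc25a20 (2.12 ± 0.18) and the complex III subunit Uqcrfs1 (1.51 ± 0.15). Of 19 PPAR targets of lipid metabolism 12 rose and 1 fell (median 1.11), with Plin5, a lipid droplet coat protein, at 2.28 ± 0.20 and lipoprotein lipase, Lpl, at 2.17 ± 0.22. Ppara itself was lower in that comparison. Of 10 nuclear factors for mitochondria 5 rose and 1 fell, with the mitochondrial helicase Twnk at 1.26 ± 0.16 and RNA polymerase Polrmt at 1.54 ± 0.21. Among 23 coregulators and partners 8 rose and 8 fell, with Perm1, a muscle and brown fat partner of ERRs, at 3.14 ± 0.43 and Lpin1 at 1.66 ± 0.18. Other adipocyte transcription factors gave 4 higher and 2 lower of 18, and upstream inputs to Ppargc1a 4 higher and 2 lower of 14. In BATKO mice 9 of 11 identity genes, 13 of 18 ERR targets and 13 of 19 PPAR targets rose. Beside these counts, 49.1% of all genes in CTRL and 40.3% in BATKO mice were called in either direction. Of the 13267 genes tested, 3514 rose in CTRL and 2836 in BATKO mice. In the test of the difference between the cold responses, where edgeR called 1.12% of all genes, it called 0 of the 113 genes of the 7 lists, with 27 at an unadjusted p below 0.05. DESeq2, run on the lists after seeing the data, called 12 of them: 11 with a lower response in BATKO mice, among them the ERR targets Atp5b, Idh3a and Sdhb and the identity genes Cox7a1, Cox8b and S100b, and 1 with a higher response. Over all genes DESeq2 called 656 in that test. Of the 149 genes that edgeR called there, 107 had a lower and 42 a higher response in BATKO mice.

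In WT mice 24 h after TH, 1 of 18 tested PPAR targets rose and 7 fell (median -0.18), with the acyl-CoA synthetase Acsl1 at -1.81 ± 0.16, Cd36 at -1.03 ± 0.12 and the fatty acid transporter Slc27a1 at -1.67 ± 0.21 (edgeR adjusted p = 5.14e-08, 1.07e-06 and 3.14e-06). Of 18 ERR targets 5 rose and 1 fell (median 0.12), among them the citric acid cycle enzyme gene Idh3a (0.89 ± 0.11). Other adipocyte transcription factors gave 1 higher and 9 lower of 18 tested, with Zfp423 at -1.06 ± 0.15, Cebpa at -0.95 ± 0.14 and Klf11 at -1.39 ± 0.22. Of the 23 coregulators and partners 6 rose and 5 fell, and Perm1 was higher here as well, at 2.21 ± 0.28 (edgeR adjusted p = 4.54e-06). Nuclear factors for mitochondria gave 3 higher and none lower of 10, and brown fat identity genes 4 higher and 2 lower of 11. Among the 14 upstream inputs to Ppargc1a 4 rose and 1 fell, the last being the β3-adrenergic receptor gene Adrb3 (-1.83 ± 0.34, edgeR adjusted p = 0.000344), which rose in the cold in CTRL mice (1.12 ± 0.31). In BATKO mice after TH edgeR called 0 of 14178 genes, so that no list could hold a called gene. For the difference between the genotypes' responses 6 of 18 PPAR targets passed the test, all with a positive BATKO minus WT value, beside 12.3% of all genes. In that test the other lists gave 7 of 23 coregulators and partners (2 positive, 5 negative), 4 of 18 other adipocyte transcription factors (3 positive, 1 negative), 3 of 11 brown fat identity genes (1 positive, 2 negative), 3 of 14 upstream inputs, 2 of 10 nuclear factors for mitochondria and 1 of 18 ERR targets (all of the last 3 lists negative). The shares called in WT mice at 24 h were 30 to 55.6% per list, beside 32.7% of all genes. On HFD in CTRL mice, 4 of 11 brown fat identity genes and 2 of 18 PPAR targets rose and none fell, beside 3.94%. Of the other lists, 3 of 14 upstream inputs (1 higher, 2 lower), 2 of 18 other adipocyte transcription factors (1 higher, 1 lower) and 1 of 18 ERR targets (higher) passed, and none of the 23 coregulators and partners or the 10 nuclear factors for mitochondria did.

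The genes most like each member except Esrrb, which was not tested in every experiment, were sought over the 15 group means, centred within experiment, as a description without a test. For Esrra they were Tpi1 (Pearson r = 0.968) and Lrp10 (0.967), for Ppargc1a Prkcsh (0.946) and Helz2 (0.935), and for Pparg Med11 (0.984) and Ech1 (0.975). The values for Ppara were 0.961 (Kctd21) and 0.957 (Fndc3a), for Ebf2 0.966 (Cep170) and 0.961 (Erbin), and for Prdm16 0.93 (Ambra1) and 0.924 (Podxl). Esrrg was followed most closely by Lpgat1 (0.966) and Pld1 (0.961), Ppargc1b by Gm20568 (0.951) and Tmem214 (0.929), and Cebpb by Cep68 (0.917) and Foxn3 (0.911). No library belongs to more than 1 group, and 7 of the 15 means come from the TH experiment, with its BATKO to WT difference. When the means were centred within genotype as well, an option chosen after seeing the data, the closest genes to Esrra were the mitochondrial genes Mrps18a (0.995) and Timm50 (0.989), those to Ppargc1a were Srrt (0.978) and Eng (0.973), and Cep170, Fndc3a and Podxl were again among the closest to Ebf2, Ppara and Prdm16.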

How the data were processed

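RNA was isolated from BAT of 59 mice, converted to libraries with a total RNA kit (SENSE, Lexogen) and sequenced on a NextSeq 500. The authors aligned the reads to mm10 with Bowtie2 (version 2.3.2.2) and deposited raw gene counts from htseq-count in 3 tables, one per experiment. DESeq2 is named in the submitters' processing notes. The annotation and strand setting are not given in the sources used here. Genes with a mean normalized count above 10 were tested with edgeR's quasi-likelihood test (edgeR 4.0.16, limma 3.58.1, R 4.3.3) after TMM scaling; p-values were adjusted by Benjamini-Hochberg and called below 0.05. The WT time course was fitted on the 5 WT groups, genotype contrasts of the TH experiment on all 7 groups, and temperature and diet on their 4 groups each. CPM used TMM-scaled library sizes, and log2 CPM an offset of 0.5. The scripts were tested on simulated data. No library was a copy of another within a group: over 91 pairs, the chi-square per degree of freedom was at least 6.81.

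Alternatives were DESeq2 1.42.0, other size factors, no filter or a filter at 50, other mice in the fit, and each mouse left out. All members could be named in every comparison, and in some contrasts those not called are given as a range or in part. From each pathway list the 3 called genes with the smallest p could be named, in the WT 24 h and CTRL cold comparisons, and the 2 genes most like each member except Esrrb by Pearson r over group means among 8474 genes. The members and lists were chosen with earlier results of these data known, so no list is independent evidence. Whether mice with the same number in the WT and BATKO groups belong together could not be decided. Neither TH nor diet doses were analysed here, and 1 marker list is not reported here.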

Additional observations from a re-analysis of the deposited data

Results flagged for a closer look

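Of 120 combinations of a gene and a group of 4 or 5 mice, 9 held 1 mouse far from the others by Dixon's criterion, where chance gives about 5 in 100. Ppargc1a was involved in 3 groups. A BATKO mouse 24 h after TH (mouse 10) had 51.1 CPM, with the others at 17.9 to 24.6. A CTRL mouse at 30 °C (mouse 22) had 38.0 CPM, with the others at 16.9 to 20.0, and a BATKO mouse at 4 °C (mouse 11) had 58.1 CPM, with the others at 37.6 to 40.1. The same BATKO mouse 10 had the lowest Esrrg of its group, 5.18 CPM against 9.94 to 11.8, and the same BATKO mouse 11 the highest Esrrb, 3.19 CPM against 1.79 to 1.95. Esrrg stood apart also in WT mouse 15 at 6 h (87.1 CPM, others 67.2 to 70.5) and in WT mouse 28 at 24 h (69.7 CPM, others 56.9 to 57.5). Ppargc1b was lowest in BATKO mouse 16 at 30 °C (24.6 CPM, others 36.3 to 37.6), and Ppara in BATKO mouse 8 at 4 °C (14.8 CPM, others 16.0 to 16.2).

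The response to TH at 24 h differed between BATKO and WT mice in 4 members by the test of the difference itself, which 12.3% of all genes passed. The BATKO minus WT values were -2.97 log2 for Esrrb, -1.38 for Esrrg, -1.12 for Cebpb and 0.90 for Ppara (edgeR, Benjamini-Hochberg adjusted p of 0.0113, 0.000507, 0.0446 and 0.0422). With 1 mouse left out 2 to 5 members passed, and the calls of Cebpb and Ppara were lost in most of those fits. Esrrb was admitted to the test through its counts in WT mice after TH.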

How the results depend on the processing

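No member changed direction in a called result under any alternative run. Size factors of DESeq2 in edgeR moved none of the 175 member results across the threshold. DESeq2 itself added 7 calls and lost none, no count filter added 4 and lost 2, a filter at 50, under which Esrrb was not tested, added 2 and lost none, fits of only the groups compared added 2 and lost 10, and fits of the time course on all 30 mice lost 3. The number of members called moved by more than 1.5 times for the BATKO minus CTRL response to cold (1 with no filter, 1 with a filter at 50, 4 with DESeq2, against 0), for the BATKO minus WT response to TH (1 with only the groups compared, against 4), for BATKO against CTRL at 4 °C (0 with only the groups compared, against 2), for HFD in CTRL mice (2 with only the groups compared, against 4) and for HFD in BATKO mice (2 with no filter and 2 with DESeq2, against 1). Smaller shifts of 1 or 2 members occurred elsewhere, such as 5 with only the groups compared for WT 24 h (against 7), 7 for BATKO against WT 24 h after TH (against 9), and 8 with DESeq2 for cold in CTRL mice (against 7).

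Leaving out each mouse in turn kept 1469 member results on their side of the threshold, lost 132 calls and gained 10. Members called ranged from 1 to 5 at 3 h, 4 to 6 at 6 h, 5 to 7 at 12 h and 5 to 7 at 24 h in WT mice, from 2 to 5 for the BATKO minus WT response, and were 7 under PTU and 7 to 10 at 24 h between the genotypes. They ranged from 5 to 8 and from 3 to 4 for cold in CTRL and BATKO mice, from 0 to 2 for the difference of these, from 0 to 2 between genotypes at 4 °C and from 1 to 3 for HFD in CTRL mice. For HFD in BATKO mice all 5 such fits gave 0, and a lone Chow mouse was then assumed to vary like the other groups.

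Counts of genes moved more widely. For HFD, DESeq2, no filter and only the groups compared gave 872, 1280 and 321 genes in CTRL mice (main 509) and 226, 336 and 66 in BATKO mice (main 9). The difference of the cold responses gave 149 genes by edgeR, 656 by DESeq2 and 4 without the 4 mice of high muscle marker sum, an option chosen after seeing the data. BATKO against CTRL gave at 4 °C 286, and 650 by DESeq2, 61 with only the groups compared and 154 without those mice. The diet response difference, BATKO against CTRL on HFD and on Chow gave 0 genes by edgeR and 216, 59 and 290 with no filter.

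The replicate numbers 2, 3 and 4 occur in both PTU groups. With the number as a block over these 6 mice, 6 members and 9148 genes were called, and without the block 6 members and 9685 genes, with Cebpb lost in both (0.078 with the block). Correlations of deviations between same-numbered mice were 0.099, -0.381 and -0.086, beside -0.156 to 0.179 between mice of different numbers. With so few pairs they cannot decide whether the numbers pair the mice. No paired analysis was possible for the other comparisons because their groups share fewer than 2 numbers, or, in the BATKO minus WT response, because the PTU groups share numbers and the 24 h groups share none. The depth limits Esrrb most, at 1 to 3 counts per WT PTU mouse.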
